A study of Danio rerio with 14 samples.

Results

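Genes of deoxynucleotide synthesis around rrm2, the small subunit gene of ribonucleotide reductase, were chosen by 8 symbols, rrm1, rrm2, rrm2b, tk1, tyms, dhfr, dut and dck. The gene rrm2 was selected on its levels by dose rate and brood in these same data, so its values describe it and support nothing further, and the others accompany it as enzymes of the same pathway. Of the 8 symbols, 6 were listed, and they name 7 genes of the 14077 listed in at least 1 of the authors' 3 deposited tables, because the symbol rrm2 belongs to 2 genes. All 7 were listed in all 3 tables, and dut and dck are not analysed here. The 7 listed genes do not stand for the whole pathway.

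Deoxynucleotides are the building blocks of DNA, and the cells of a cleaving fish embryo use them rapidly while they copy their genomes in fast division cycles. Ribonucleotide reductase makes them by reducing ribonucleotides. Its large subunit is encoded by rrm1 and its small subunit by rrm2 or, in place of it, by rrm2b, a p53-responsive gene in mammals. Thymidylate synthase (tyms) makes dTMP, dihydrofolate reductase (dhfr) regenerates the folate that this step uses up, and thymidine kinase 1 (tk1) and deoxycytidine kinase (dck) phosphorylate salvaged nucleosides. The dUTPase encoded by dut keeps uracil out of DNA and supplies dUMP to tyms. The egg also holds a maternal supply of many such transcripts.

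The RNA came from zebrafish (AB wild type) F1 embryos at 5.5 hours after fertilization, from parents that had received gamma radiation while their gametes formed or from unexposed parents. The 0 yr brood had a control (2 libraries, since 1 sample was lost in RNA extraction) and groups at 8.7 mGy/h and at 53 mGy/h with 3 libraries each. The 1 yr brood had a control and a group at 8.7 mGy/h, again with 3 each, where 0 yr means bred 1 month after exposure and 1 yr means the parents bred again after 1 year. Each library pooled 100 whole embryos. The labels do not say which parents or clutches a library came from, so the p-values may cover only technical spread. The tables hold 1 value per group in RPM, reads scaled to library size, and spread between libraries is not used here. The 1 yr values stand in a table of their own, so levels set across broods cross tables. Geometric mean depth was at least 22.6 to 27.7 megareads per group, which puts the geometric mean of each of the 7 genes at 248 reads or more per library.

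A gene is called risen or fallen here where the authors' deposited false discovery rate (FDR) was under 0.05, and the log2 change is the exposed minus the control group in log2 RPM. All tests named are the authors' own, and without a spread neighbouring group levels cannot be told apart outside those tests. In whole embryos, fewer cells of a type and less RNA per cell cannot be told apart.

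The level of the rrm2 gene on chromosome 20 (ENSDARG00000020711, 29589590 to 29596547 on the minus strand, GRCz10) was highest in the 0 yr control. It was 102.69 RPM in control 0 yr, 33.41 RPM at 8.7 mGy/h 0 yr, 48.79 RPM at 53 mGy/h 0 yr, 34.91 RPM in control 1 yr and 59.61 RPM at 8.7 mGy/h 1 yr. The next highest group was 8.7 mGy/h 1 yr. Of both dose rates at 0 yr the lower had the lower level, and no deposited test compares them. In the comparison at 8.7 mGy/h 0 yr the gene was 3.07-fold lower than control (log2 change -1.62), and the authors' deposited table gives it an FDR of 5.91e-11, rank 3 of 13263 genes by FDR and 17 by size of change. At 53 mGy/h it was 2.1-fold lower (log2 change -1.07, authors' FDR 1.71e-06), rank 1939 of 13714 by FDR and 3470 by size of change. In the 1 yr brood it was 1.71-fold higher at 8.7 mGy/h than in its own control (log2 change 0.77, authors' FDR 0.000459). Its rank there was 2268 of 12502 by FDR and 1574 by size of change. The 0 yr comparisons share the same 2 control libraries.

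The rrm2 gene on chromosome 19 (ENSDARG00000078069, 48003903 to 48010821 on the minus strand, GRCz10) had its lowest level in the 0 yr control. It was 318.11 RPM in control 0 yr, 389.46 RPM at 8.7 mGy/h 0 yr, 398.67 RPM at 53 mGy/h 0 yr, 359.93 RPM in control 1 yr and 347.06 RPM at 8.7 mGy/h 1 yr. It was not called in any comparison, with log2 changes of 0.29 (authors' FDR 0.583) at 8.7 mGy/h 0 yr, 0.33 (0.305) at 53 mGy/h and -0.05 (0.685) at 1 yr. At both dose rates of the 0 yr brood the chromosome 20 gene had a lower level than in control and this gene a higher one. At 1 yr the chromosome 20 gene was higher and this gene differed by -0.05. That becomes 0.0 once the median of genes with a mean of at least 10 RPM in the comparison is set to 0.

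**Figure D1:**
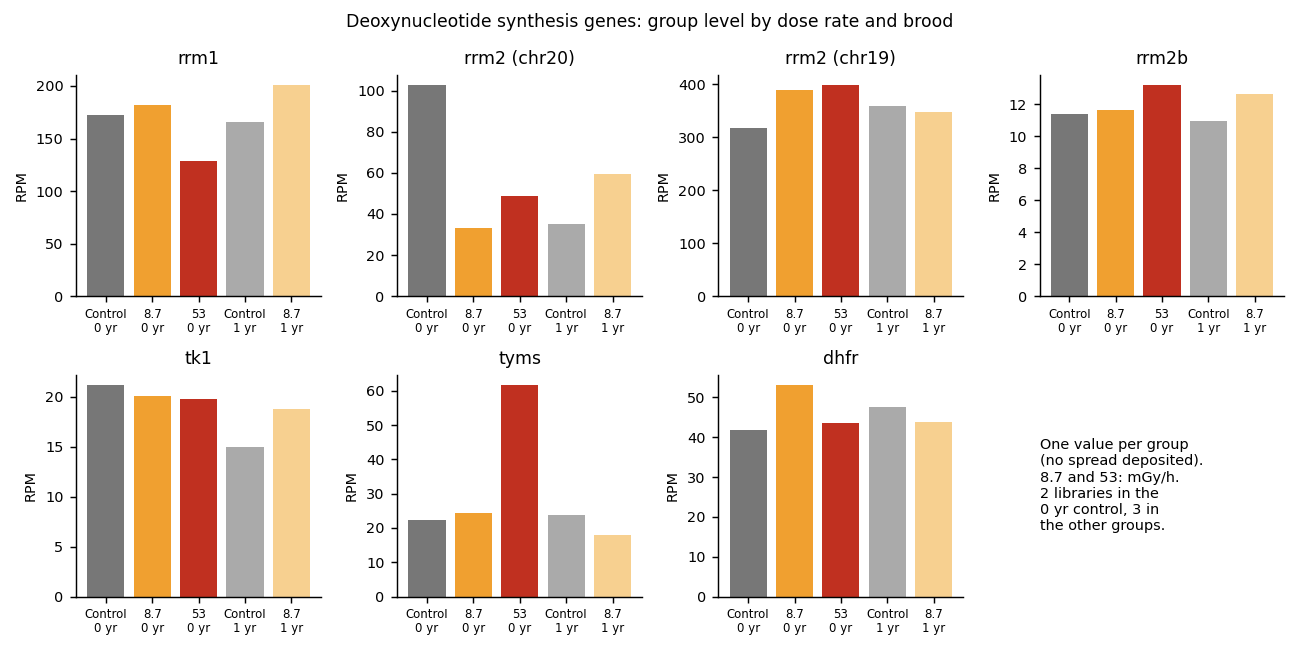
Level of the 7 listed genes in RPM (linear axes from 0) in each of the 5 groups; a bar is the authors' value for the group, without a spread. The rrm2 gene on chromosome 20 is highest in the 0 yr control (102.69 RPM) and tyms is highest at 53 mGy/h (61.58 RPM).

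Both genes carry the same symbol and the same ZFIN entry in the deposited tables, and the name table pairs both with RRM2. In RefSeq (GRCz12tu), rrm2 is an older name of rrm2l on chromosome 20 and of rrm2b on chromosome 19. By symbol, the rrm2b entry was assigned to the separate member rrm2b (ENSDARG00000033367), so it was not open to the chromosome 19 gene named rrm2. No other RefSeq entry on that chromosome held the name rrm2. Positions were not compared, so which chromosome 19 gene the entry denotes is not settled. How reads that match both genes were assigned is not given in the sources used here, so the level of each is uncertain. Added together, the 2 genes gave 420.8 RPM in control 0 yr, 422.9 RPM at 8.7 mGy/h 0 yr, 447.5 RPM at 53 mGy/h 0 yr, 394.8 RPM in control 1 yr and 406.7 RPM at 8.7 mGy/h 1 yr. The highest sum was 1.13 times the lowest, against 3.07 times for the chromosome 20 gene and 1.25 times for the chromosome 19 gene. At 8.7 mGy/h 0 yr the chromosome 20 gene differed from control by -69.3 RPM and the chromosome 19 gene by 71.3 RPM, so the sum differed by 0.007 on the log2 scale. At 53 mGy/h the differences were -53.9 and 80.6 RPM, and the sum differed by 0.09 on the log2 scale. At 1 yr they were 24.7 and -12.9 RPM, and the sum differed by 0.04. The chromosome 20 gene held 24.4% of the reads of both in control 0 yr, 7.9% and 10.9% at 8.7 and 53 mGy/h 0 yr, 8.84% in control 1 yr and 14.7% at 8.7 mGy/h 1 yr. The sums are of group values, carry no test, and whether reads shifted between the 2 genes in the assignment was not tested.

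**Figure D2:**
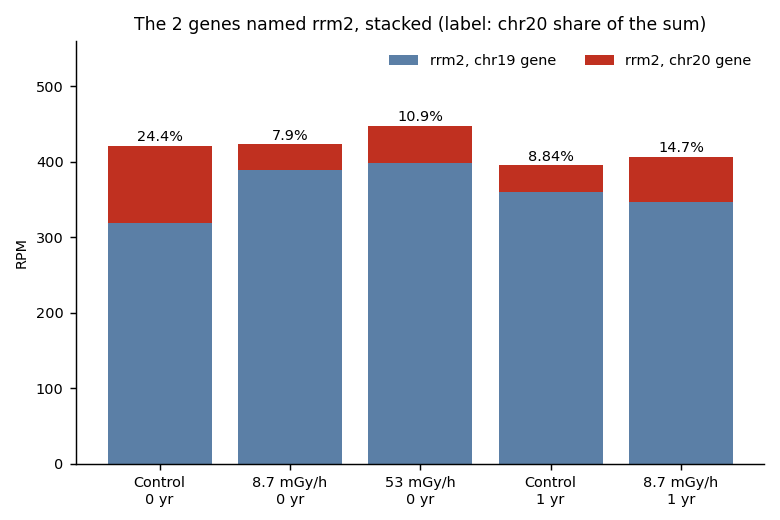
Stacked RPM of the chromosome 19 gene (blue) and the chromosome 20 gene (red) named rrm2 in each group, with the chromosome 20 share of the sum above each bar. The sums lie between 394.8 and 447.5 RPM, while the red part is 24.4% of the 0 yr control and 7.9 to 14.7% of the other 4 groups.

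The large subunit gene rrm1 (chromosome 21, 30735348 to 30750719, minus strand) was at 172.39 RPM in control 0 yr, 182.13 RPM at 8.7 mGy/h 0 yr, 128.18 RPM at 53 mGy/h 0 yr, 165.86 RPM in control 1 yr and 200.79 RPM at 8.7 mGy/h 1 yr. Its level was lowest at 53 mGy/h and highest at 8.7 mGy/h 1 yr. It fell at 53 mGy/h (log2 change -0.43, 1.34-fold lower, authors' FDR 0.000253), rose at 1 yr (log2 change 0.28, 1.21-fold, authors' FDR 3.75e-07) and was not called at 8.7 mGy/h 0 yr (log2 change 0.08, authors' FDR 0.994). The other small subunit gene, rrm2b (chromosome 19, 33329252 to 33341366, minus strand), lay within a narrow range. It was at 11.39 RPM in control 0 yr, 11.65 RPM at 8.7 mGy/h 0 yr, 13.21 RPM at 53 mGy/h 0 yr, 10.98 RPM in control 1 yr and 12.68 RPM at 8.7 mGy/h 1 yr. It was called in none of the 3 comparisons, with the authors' FDR nearest the threshold, 0.0544, at 1 yr (log2 change 0.21).

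The thymidylate synthase gene tyms (chromosome 7, 71293904 to 71300188, plus strand) had its highest level at 53 mGy/h. It was at 22.2 RPM in control 0 yr, 24.3 RPM at 8.7 mGy/h 0 yr, 61.58 RPM at 53 mGy/h 0 yr, 23.83 RPM in control 1 yr and 18.02 RPM at 8.7 mGy/h 1 yr. It rose 2.77-fold at 53 mGy/h (log2 change 1.47, authors' FDR 1.91e-16), rank 469 of 13714 genes by FDR, and fell at 1 yr (log2 change -0.4, 1.32-fold lower, authors' FDR 0.018). The dhfr gene, whose product works in the same cycle (chromosome 5, 25538160 to 25546335, plus strand), was called in none. Its level was 41.81 RPM in control 0 yr, 53.0 RPM at 8.7 mGy/h 0 yr, 43.64 RPM at 53 mGy/h 0 yr, 47.49 RPM in control 1 yr and 43.88 RPM at 8.7 mGy/h 1 yr. Its log2 change of 0.06 at 53 mGy/h becomes -0.05 once the median of genes with a mean of at least 10 RPM is set to 0.

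The salvage kinase gene tk1 (chromosome 11, 44738710 to 44743661, plus strand) was at 21.12 RPM in control 0 yr, 20.01 RPM at 8.7 mGy/h 0 yr, 19.76 RPM at 53 mGy/h 0 yr, 14.93 RPM in control 1 yr and 18.77 RPM at 8.7 mGy/h 1 yr. The 3 groups of the 0 yr brood lie close together, and the 1 yr control is the lowest group. It rose at 1 yr (log2 change 0.33, 1.26-fold, authors' FDR 0.00145) and was not called at 53 mGy/h (log2 change -0.1, authors' FDR 0.266) or 8.7 mGy/h 0 yr (-0.08, 0.996). No member overlaps another listed gene, but tk1 lies 97 bases from afmid on the opposite strand, and the libraries do not mark strand.

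By comparison, 3 of the 7 genes (42.9%) were called at 53 mGy/h, beside 43.6% of all 13714 genes in that table. There 1 rose (22.1% of all genes rose) and 2 fell (21.5% fell). The lower dose rate at 0 yr had 1 of 7 (14.3%) called, the chromosome 20 rrm2 gene, which fell, beside 0.294% of 13263 genes called, 0.151% up and 0.143% down. That gene was selected on this difference, so nothing is read from its count. At 8.7 mGy/h 1 yr 4 of 7 (57.1%) were called, 3 up and 1 down, beside 42.4% of 12502 genes called, 2500 up (20.0%) and 2801 down (22.4%). With a fold of at least 1.5 required, 1 of the 4 remained, the chromosome 20 rrm2 gene. The share of all genes at that fold is not given here, and that gene was selected on its values, so nothing is read from this count. Neither the share at 53 mGy/h nor, with 7 genes, that at 1 yr is read as a result about them. The median log2 change of the 7 was 0.06, 0.08 and 0.21 at 53 and 8.7 mGy/h of the 0 yr brood and at 1 yr, and that of all listed genes was 0.12, -0.04 and -0.09.

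**Figure D3:**
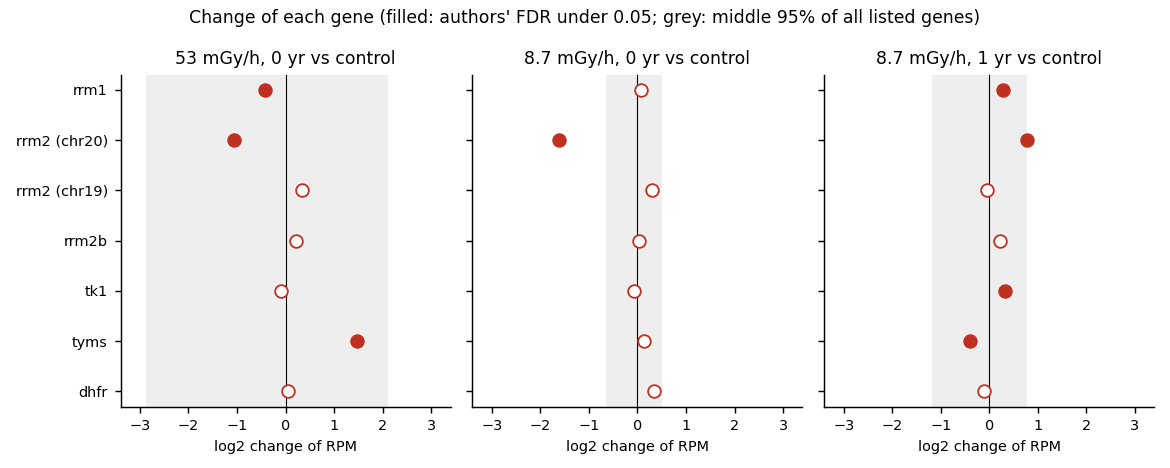
Log2 change of RPM of each of the 7 genes in the 3 comparisons; filled points have an authors' FDR under 0.05 and the grey band holds the middle 95% of all listed genes (-2.85 to 2.09, -0.62 to 0.49 and -1.16 to 0.76 from left to right). The chromosome 20 rrm2 gene lies outside the band at 8.7 mGy/h 0 yr (-1.62) and at its edge at 1 yr (0.77).

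The control groups of both broods also differed from each other in the chromosome 20 rrm2 gene. Its level in control 1 yr was 2.94-fold below control 0 yr (log2 difference -1.56, beside exposed minus control differences of -1.62, -1.07 and 0.77), and 1.07% of the 6821 genes with a mean of at least 10 RPM differed as far. It was the only 1 of the 7 past 2-fold between the controls, where 8.56% of 12205 genes were, while tk1 differed by -0.5 and the other 5 genes by -0.06 to 0.18. The chromosome 20 rrm2 gene was selected on its levels by dose rate and brood, so nothing is read from these shares. The median of the 6821 genes between the controls was -0.17, so of the 4 members lower in control 1 yr, 2 remained lower relative to it. Stage markers, described below, differed between the controls too. The summed gastrula-stage markers were 1348 RPM in control 0 yr and 2205 RPM in control 1 yr, and the maternally supplied ones 2321 and 1959 RPM. Single gastrula-stage markers went both ways, with ta at 44.36 and 211.21 RPM and mxtx2 at 46.75 and 8.58 RPM. Maternally supplied markers did too. Only nanog was lower in control 1 yr (1138.13 and 441.71 RPM), and sox19b, buc, pou5f3 and ddx4 were higher there. The part of stage was not tested. Brood, time of breeding, stage and table cannot be told apart in these differences. Between the 8.7 mGy/h groups, 1 yr minus 0 yr, the chromosome 20 gene differed by 0.84, and the median of the 6821 genes was -0.29. None of the 7 passed 2-fold in this pair, beside 19.3% of 12171 genes. Between 53 and 8.7 mGy/h at 0 yr, tyms was 2.53-fold higher at 53 mGy/h and was the only 1 of the 7 past 2-fold, beside 27.4% of 13197 genes. There the chromosome 20 rrm2 gene was 1.46-fold higher at 53 mGy/h and rrm1 1.42-fold lower. These pairs have no deposited test.

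The 0 yr control, with its 2 libraries, is the highest or lowest of the 5 groups for 4 of the 7 genes, both rrm2 genes, tk1 and dhfr. The same holds for 22.5% of the 12120 genes listed in all tables and for 69.4% of the 36 among them that were called at 8.7 mGy/h 0 yr (39 calls in all). A control that is extreme makes a call in its comparison more likely, so these shares only describe the groups.

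The genes within 1000 kb of the chromosome 20 rrm2 gene were not called beside it at 8.7 mGy/h 0 yr. This holds for all 26 listed genes within 1000 kb by the authors' FDR (unadjusted p-values are not used here), in a comparison where 0.294% of all genes were called, so nothing is read from that count, and their log2 changes ran from -0.75 to 0.41. The nearest, klf11a, which encodes a Krüppel-like transcription factor, lies 2.6 kb away and was at 1.65 RPM in control and 1.55 RPM at 8.7 mGy/h (log2 change -0.09, authors' FDR 0.997). At 53 mGy/h 6 of 27 neighbours rose and 5 fell, beside 43.6% of all genes called, and at 1 yr 2 of 24 rose and 1 fell, beside 42.4%. Outside this window on chromosome 20, acbd3 (30799646 to 30819003) fell at 8.7 mGy/h 0 yr (log2 change -0.67, authors' FDR 0.0082). On the same chromosome mcm3l (6526576 to 6542515) rose there (log2 change 0.71, authors' FDR 0.0179). The first was picked for levels like those of rrm2 and the second after its values were seen, so nothing is read from them. Other genes beyond the window are not shown here by position.

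**Figure D4:**
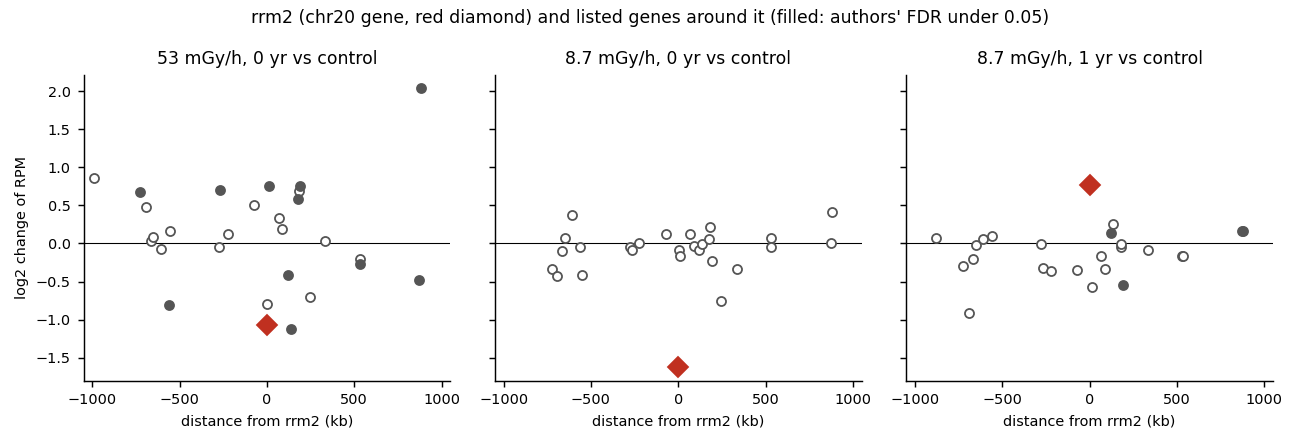
Log2 change of RPM against distance in kb for the listed genes within 1000 kb of the chromosome 20 rrm2 gene (red diamond at 0) in the 3 comparisons; filled points have an authors' FDR under 0.05. In the middle panel the neighbours lie between -0.75 and 0.41 and rrm2 at -1.62.

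The genes whose 5 group levels were most like those of the chromosome 20 gene, by Euclidean distance in centred log2 RPM among the 6821 genes, were zgc:113208 (distance 0.64), acbd3 (0.88), the ubiquitin ligase scaffold gene cul4a (0.88), pdzd2 (0.91) and the splicing factor gene zrsr2 (0.92). The closest, zgc:113208, was at 18.26 RPM in control 0 yr, 10.03 RPM at 8.7 mGy/h 0 yr, 11.55 RPM at 53 mGy/h 0 yr, 7.98 RPM in control 1 yr and 10.6 RPM at 8.7 mGy/h 1 yr. It is likewise highest in the 0 yr control, but it was chosen for levels like those of rrm2, so nothing is read from this. The choice depends on the measure: of the 5 genes, zrsr2 alone stayed among the closest 5 by Pearson correlation, and zgc:113208 alone with a minimum of 1 RPM. Of the other members tk1 came closest, at rank 167 (distance 1.15), and tyms was farthest, at rank 5717 (2.06). The gene rrm2b, whose levels lay within a narrow range, was at 1.32 (rank 1421), so the rank of tk1 is not read as likeness.

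At 53 mGy/h the listed genes of salvage, of the folate cycle and of the thioredoxin and glutaredoxin systems moved in both directions. In that comparison 43.6% of all genes were called and the median log2 change of all genes was 0.12. Of 12 listed salvage and phosphorylation genes 3 rose and 3 fell: the mitochondrial thymidine kinase gene tk2 rose from 1.94 to 8.41 RPM (authors' FDR 1.54e-11), the UMP-CMP kinase gene cmpk rose from 52.63 to 77.33 RPM (0.0027), and nme3, a nucleoside diphosphate kinase gene, fell from 2.84 to 1.1 RPM (0.000306). The guanylate kinase gene guk1a fell from 12.09 to 7.22 RPM (0.0061). Of 16 folate cycle genes 6 rose and 1 fell, with a median log2 change of 0.44. Methionine synthase (MTR) rose from 7.91 to 58.23 RPM (2.32e-38) and amt, of the glycine cleavage system, from 3.41 to 21.36 RPM (1.33e-18), while the mitochondrial folate carrier gene slc25a32a fell from 12.01 to 7.41 RPM (0.000336). Of 7 listed thioredoxin, glutaredoxin and related reductase genes, 1 rose and 1 fell. Thioredoxin reductase 1 (txnrd1) rose from 55.31 to 131.55 RPM (8.98e-18) and txn2 fell from 7.49 to 4.23 RPM (0.00645).

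Of 23 genes that control the reductase or its transcription at 53 mGy/h, 4 rose and 9 fell, beside 22.1% and 21.5% of all genes. The damage-sensing kinase genes atm (2.35 to 15.45 RPM, authors' FDR 1.29e-11) and atr (5.91 to 31.09 RPM, 1.26e-11) rose, and the pocket protein gene rbl1 (27.53 to 11.04 RPM, 1.21e-11) and the E2F repressor gene e2f8 (93.25 to 38.44 RPM, 1.42e-15) fell. The checkpoint kinase genes chek1 (17.69 to 11.15 RPM, 0.00643) and chek2 (14.98 to 7.62 RPM, 6.21e-06), named after their values were seen, fell as well. Of 20 purine genes 1 rose and 4 fell, with paics, of de novo purine synthesis, at 120.17 and 53.12 RPM (1.86e-13), pnp4a, a purine nucleoside phosphorylase gene, at 14.82 and 7.77 RPM (0.0127) and adssl, an adenylosuccinate synthase gene, which rose, at 76.37 and 128.36 RPM (0.00022). Of 7 pyrimidine genes 1 fell, the CTP synthase gene ctps1a (107.47 to 69.54 RPM, 4.68e-07). None of 5 breakdown genes was called. Of 35 replication genes 4 rose and 10 fell. The clamp loader gene rfc1 rose from 11.09 to 57.67 RPM (9.43e-25) and the polymerase delta subunit gene pold2 from 7.19 to 14.97 RPM (9.52e-05), and dbf4, which activates origins with cdc7, fell from 14.71 to 3.88 RPM (1.79e-12) and the helicase factor gene cdc45 from 8.78 to 4.11 RPM (1.25e-05).

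Markers of stage were among the genes called in the same comparison, where 22.1% of all genes rose and 21.5% fell. All 10 listed gastrula-stage markers fell at 53 mGy/h, their summed level being 1348 RPM in control 0 yr, 1402 RPM at 8.7 mGy/h 0 yr, 261.4 RPM at 53 mGy/h 0 yr, 2205 RPM in control 1 yr and 2630 RPM at 8.7 mGy/h 1 yr. The neural gene sox3 fell from 123.58 to 13.35 RPM (authors' FDR 2.91e-26) and vox, a ventral repressor gene, from 140.57 to 16.76 RPM (3.71e-06). Of 5 maternally supplied markers 2 rose at 53 mGy/h, sox19b from 70.08 to 522.45 RPM (authors' FDR listed as 0, a rounded value) and buc, of the germ plasm, from 44.32 to 313.53 RPM (2.37e-40), and pou5f3 fell from 944.29 to 578.97 RPM (2.97e-05). Of 15 cleavage and mitosis genes 5 rose and 7 fell. The cyclin genes ccnb2 (198.0 to 601.12 RPM, 1.93e-15) and ccna1 (367.36 to 873.45 RPM, 2.95e-14) rose, and ccne2 (73.94 to 9.51 RPM, 1.42e-25) and cdk1 (10.97 to 2.99 RPM, 1.91e-08) fell. The part of stage or maternal supply in the tyms, rrm1 and pathway differences was not tested. Genes of other tissues (ovary, sperm, blood, muscle, pancreas) were 3 of 8 listed at 0 yr (zp3b, zp2.1 and odf3b) and 2 at 1 yr, where odf3b was not listed. They summed to 43.15 to 47.88 RPM over the 3 genes in the 0 yr groups and to 45.67 and 41.51 RPM over the 2 genes in control and 8.7 mGy/h 1 yr, with hbaa1, hbba1, tssk6, ins and myhz1.1 not listed and none called.

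**Figure D5:**
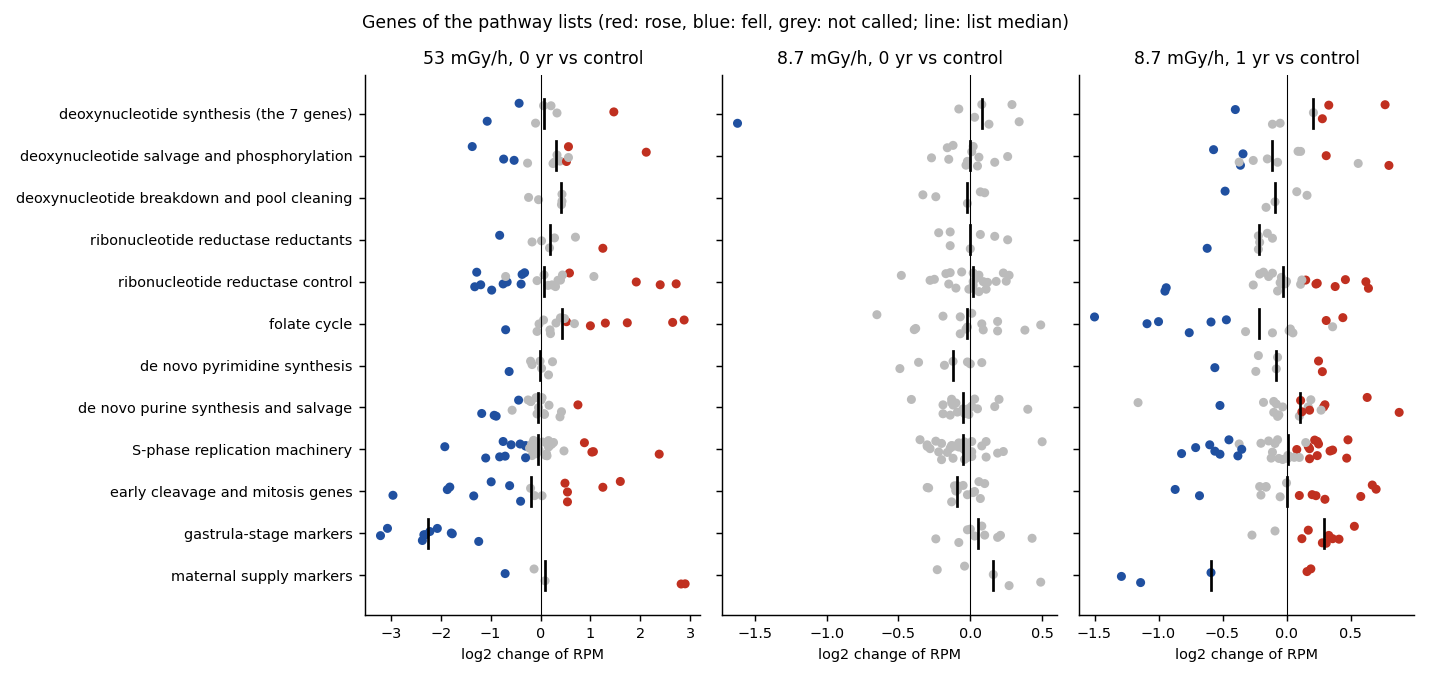
Log2 change of RPM of each listed gene of the pathway and marker lists in the 3 comparisons (each panel has its own horizontal scale, and points are spread vertically for legibility); red points rose, blue points fell, grey points were not called and the black line is the list's median. At 53 mGy/h the gastrula-stage markers lie at a median of -2.26, and at 8.7 mGy/h 0 yr the single coloured point is the chromosome 20 rrm2 gene at -1.62.

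At 8.7 mGy/h 0 yr none of the genes in these other 12 lists was called by the authors' FDR, beside 0.294% of all genes. The replication gene mcm3l and the pyrimidine breakdown gene dpydb, both called in this comparison (authors' FDR 0.0179 and 0.0058), are not in the lists. The list medians of the pathway and replication genes lay between -0.12 and 0.02, and the summed gastrula-stage markers were 1348 RPM in control and 1402 RPM at 8.7 mGy/h.

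At 8.7 mGy/h 1 yr several groups had calls, in a comparison where 42.4% of all genes were called. Of 35 replication genes 12 rose and 8 fell, with gins4, of the replicative helicase (3.68 to 5.13 RPM, authors' FDR 0.0228), and cdc45 (5.7 to 7.87 RPM, 0.00352) among the rises and rfc1 (15.72 to 8.92 RPM, 2.29e-05) and the origin recognition gene orc2 (4.81 to 2.95 RPM, 0.015) among the falls. Of 22 reductase control genes 7 rose and 2 fell. The cyclin F gene ccnf, whose product in mammals marks RRM2 for degradation, rose from 37.79 to 58.97 RPM (1.64e-14) and E2F2 from 13.73 to 21.04 RPM (1.11e-08). The genes atr (6.97 to 3.61 RPM, 0.000204) and atm (4.73 to 2.47 RPM, 0.00164) fell. At 53 mGy/h 0 yr ccnf went the other way, from 29.29 to 12.79 RPM (authors' FDR 4.08e-06), and it was not called at 8.7 mGy/h 0 yr. Of 20 purine genes 7 rose and 1 fell. The phosphorylase gene pnp4a rose from 30.74 to 56.61 RPM (1.48e-24), adssl1 rose from 3.51 to 5.43 RPM (0.00137) and hprt1, of purine salvage, fell from 36.03 to 25.2 RPM (3.91e-05). Of 7 pyrimidine genes cad (298.44 to 363.51 RPM, 3.8e-07), which encodes the first enzymes of the pathway, and ctps1a (125.14 to 148.87 RPM, 1.52e-06) rose and ctps1b fell from 6.08 to 4.12 RPM (0.0309).

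The folate cycle had 2 rises and 6 falls among 14 listed genes at 1 yr, where 20.0% of all genes rose and 22.4% fell. The carrier gene slc25a32a (8.89 to 12.09 RPM, authors' FDR 0.000842) and the mitochondrial enzyme gene mthfd2 (10.12 to 12.54 RPM, 0.0101) rose, and MTR (15.17 to 7.15 RPM, 0.00524) and ggh (1.36 to 0.48 RPM, 0.00929) fell. Of 12 salvage genes 2 rose and 3 fell. The thymidylate kinase gene dtymk rose from 7.0 to 8.7 RPM (0.0207) and nme2b.2 from 0.84 to 1.45 RPM (0.041), and cmpk fell from 33.53 to 22.6 RPM (3.85e-06) and the dCMP deaminase gene dctd from 18.76 to 14.62 RPM (0.037). The breakdown gene dctpp1 (157.47 to 112.99 RPM, 1.71e-06) and txnrd1 (60.18 to 39.24 RPM, 1.19e-07) were the only calls of their lists, and both fell. Of 15 cleavage and mitosis genes 7 rose and 2 fell. The rises included cdk1 (10.68 to 17.41 RPM, 1.48e-07) and top2a, a topoisomerase gene (63.34 to 100.45 RPM, 3.47e-18), and the falls were ccna1 (294.56 to 161.07 RPM, 2.97e-12) and ccnb2 (214.45 to 134.06 RPM, 1.71e-07).

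Stage markers were among the genes called at 1 yr too, in a comparison where 20.0% of all genes rose and 22.4% fell. Of 10 gastrula-stage markers 8 rose and none fell, among them mxtx2 (8.58 to 12.43 RPM, authors' FDR 0.000249) and ta (211.21 to 280.09 RPM, 4.2e-10). Of 5 maternally supplied markers 3 fell, including buc (58.73 to 24.06 RPM, 0.000419) and sox19b (118.71 to 53.95 RPM, 0.000487), and pou5f3 (1172.58 to 1335.69 RPM, 3.11e-06) and ddx4 (167.67 to 186.79 RPM, 0.000343) rose. Their part in the changes of the chromosome 20 rrm2 gene, rrm1, tk1 and tyms at 1 yr was not tested.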

How the data were processed

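The submitters' processing notes list the build GRCz10 and, with no roles or settings, the tools STAR 2.5.2b, Trim Galore 0.4.2, DESeq2 and FastQC 0.11.5. The libraries were poly(A)-selected and non-directional, from 1.5 µg of total RNA, read as 150 bp pairs, per the labels' protocols. Each of the 3 deposited tables sets 1 exposed group against its control, and holds the authors' RPM and log2 RPM of both groups, per the file headers. The deposited absFC is the ratio of exposed to control RPM, and the deposited signed fold change is a score that is negative where the exposed value is lower. The deposited FDR is a p-value adjusted for multiple testing, and the test behind it is not named in the tables. The 2 tables at 0 yr hold identical control values. No column of per-sample values was left unused, since the tables hold group values.

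The planned edgeR test needs counts per library, so the authors' FDR was used at a threshold of 0.05 over each whole table. A group value is a mean of log2 values, so group value and number of libraries give back whole products of reads: with the labelled number of libraries 100% of 150 low values came out whole (tolerance 0.04, from 0.4 RPM), and with another number 22.7 to 32.0%. This gives the least geometric mean depth, of 27.7, 25.7 and 27.3 megareads for control, 8.7 and 53 mGy/h at 0 yr and 22.6 and 23.6 megareads for control and 8.7 mGy/h at 1 yr, and nothing on the spread of libraries. Counts and differences were computed with Python 3.11.15, numpy 2.4.6 and pandas 2.3.3 and plotted with matplotlib 3.10.9; the scripts were tested on simulated data.

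The members, the 12 other lists and the thresholds were chosen with earlier results of these data known. The genes named were all members, of each list the 2 called rises and 2 called falls with the largest log2 change in a comparison, and the 5 genes closest to rrm2. List symbols were matched to the tables' symbols without case. No sequences are shown.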

Additional observations from a re-analysis of the deposited data

How the results depend on the processing

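No paired analysis was possible because the tables hold 1 value per group and no library columns, and for the same reason no library could be left out in turn. Chosen after seeing the data, adding both rrm2 genes turned the log2 change of rrm2 from -1.07 to 0.09 at 53 mGy/h and from -1.62 to 0.007 at 8.7 mGy/h 0 yr, and moved it from 0.77 to 0.04 at 1 yr. The chromosome 20 gene held 7.9 to 24.4% of the sums, so they describe both genes together and not that gene. Without the chromosome 20 gene the number of members called at 8.7 mGy/h 0 yr went from 1 to 0. Requiring a fold of at least 1.5 lowered the members called at 1 yr from 4 to 1, the chromosome 20 rrm2 gene, which was selected on its values. Centring on the median left 2 of 4 members lower in control 1 yr than in control 0 yr. The other 28 values of the counts of members called and of the rrm2 log2 change kept their direction and their side of the threshold, or stayed within 1.5 times the count, under FDR thresholds of 0.01 and 0.1, a minimum of 1 RPM, log2 of RPM + 0.5, the deposited ratio, centring, leaving out either rrm2 gene and a fold of at least 1.5, apart from the changes above. Among them, the members called at 53 mGy/h went from 3 to 2 with the fold of at least 1.5 and likewise without the chromosome 20 gene, and those at 1 yr from 4 to 3 without that gene, to 3 at an FDR of 0.01 and to 5 at 0.1. The shares of all genes at these other thresholds are not given here, so nothing is read from the counts of members at them. Several of the 28 values could hardly have changed, so their number is no measure of robustness. The lowest member level was 10.98 RPM, so a minimum of 1 RPM removed no member. The chromosome 19 rrm2 gene was called in no comparison, so leaving it out could not change a count. The deposited ratio rests on the same RPM values, and 0.5 RPM is small beside them. Of the 5 genes closest to rrm2, 1 stayed among the closest by Pearson correlation and 1 with a minimum of 1 RPM. Depth per library cannot be had from group values, so single genes carry no interval.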

Other observations

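Outside the lists, genes of pyrimidine breakdown were looked at after their values were seen. The gene dpydb, which encodes dihydropyrimidine dehydrogenase, the first enzyme that degrades uracil and thymine, was at 5.52 RPM in control 0 yr, 10.37 RPM at 8.7 mGy/h 0 yr, 9.5 RPM at 53 mGy/h 0 yr, 12.97 RPM in control 1 yr and 10.84 RPM at 8.7 mGy/h 1 yr. It rose at 8.7 mGy/h 0 yr (authors' FDR 0.0058) and 53 mGy/h (0.0067) and was not called at 1 yr (0.316), and the 0 yr control is the lowest of the 5 groups. Its paralog dpyda.3 and upb1, the last enzyme of that route, were not called in any comparison, with levels of 1.06 to 2.52 RPM. The nucleotide hydrolase gene dnph1 was not called either, with an authors' FDR of 0.0755 at 53 mGy/h.

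The replication licensing gene mcm3l, also singled out after its values were seen, was at 29.43 RPM in control 0 yr, 48.09 RPM at 8.7 mGy/h 0 yr and 74.24 RPM at 53 mGy/h 0 yr, and rose in both comparisons (authors' FDR 0.0179 and 4.48e-18). At 1 yr it was at 24.06 RPM in control and 25.14 RPM at 8.7 mGy/h and was not called (0.311). The gene acbd3 on chromosome 20, among the 5 genes closest to rrm2 by Euclidean distance but not by Pearson correlation or with a minimum of 1 RPM, fell from 64.85 to 40.78 RPM at 8.7 mGy/h 0 yr (authors' FDR 0.0082) and to 33.18 RPM at 53 mGy/h (3.15e-12), and was not called at 1 yr (34.02 and 36.57 RPM, 0.0716). Its control at 1 yr lies near its exposed levels at 0 yr. The gene acbd3 was picked for group levels like those of rrm2, so this pattern follows from the choice and nothing is read from it.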
